A study of Mus musculus with 6 samples.

Results

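The genes described here encode the proteins that fill, hold, dock and fuse synaptic vesicles. They were chosen by name from a list of 43 genes, with earlier results of these data known. For each gene the transcript cluster (a group of probes covering 1 transcribed region) annotated with that symbol alone and with the highest mean over the arrays was taken. Of the 43, 42 had such a cluster among the 19937 genes tested. Vamp2, the main vesicle SNARE of neurons, was not measured, because its cluster also carried the symbol Ubr3. All arrays held RNA of primary neurospheres, free-floating balls of cells grown by precursors from dissociated hippocampal tissue in medium with EGF and bFGF, from adult male C57BL/6J mice of 8 to 12 weeks. The sample labels call them small neurospheres. In 1 group (N) the medium held norepinephrine at 10 µM, in the other (K) potassium chloride at 15 mM, and the neurospheres of both were collected on day 14, with 3 arrays (biological replicates) per group. There was no untreated group on these arrays. Each difference is therefore N against K, and it cannot be assigned to one of the treatments. Whether a replicate came from 1 mouse or from pooled mice is not given in the sources used here.

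At a synapse, transmitter is released when a vesicle fuses with the cell membrane in answer to calcium. A SNARE complex, built from a vesicle protein (a synaptobrevin, or VAMP) and membrane proteins (a syntaxin and a SNAP25-type protein), pulls the membranes together. Synaptotagmins sense calcium, complexins clamp and promote fusion, Rab3 and the active zone scaffold hold vesicles at the release site, and NSF takes the spent complexes apart. Neurons carry the full set, while astrocytes, their precursors and most other cells use related SNAREs and some synaptotagmins for constitutive and granule secretion. Norepinephrine acts through adrenergic receptors, some of which raise cAMP, and added potassium depolarises cells and lets calcium in.

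None of the 42 measured genes passed at an adjusted p under 0.05 from limma (0.155% of all genes tested did), and the lowest adjusted p among them was 0.263. At an unadjusted P under 0.05, 6 of the 42 (14.3%) differed, against 8.54% of all genes tested. All 6 were higher with N and 0 were lower, beside 4.64% and 3.89% of all genes tested. These 6 were Rab3b, Cplx2, Snap25, Vamp3, Sv2a and Syt4. In 8 of the 42, these 6 with Syt12 and Pclo, all 3 N arrays lay above all 3 K arrays, and in 0 they lay below, beside 5.78% and 7.55% of all genes tested. The genes were chosen with earlier results of these data known, so these shares do not test the list. An ordinary linear model without moderation also gave 0 genes after adjustment and 6 at an unadjusted P under 0.05 (7.03% of all genes tested in that model), of which Syt12 and Pclo took the places of Vamp3 and Sv2a. The median log2FC (N minus K) over the 42 was 0.04, against -0.03 over all genes tested, with 27 of the 42 above 0 (43.0% of all genes were). Rab3b, Cplx2 and Snap25 were the 3 of the 42 with a fold over 1.5 and an unadjusted P under 0.05 (2.56% of all genes tested). None had a log2FC over 1 in size, the size the study's methods ask of a changed gene (0.492% of all genes tested had it with an unadjusted P under 0.05). The remaining 34 genes had log2FC from -0.21 to 0.33. The lowest bound of their intervals was -0.67 (Syp) and the highest 0.81 (Sv2c). With 3 arrays per group, changes of that size were within the precision for those genes, not for all 34. The median standard error over the 42 genes was 0.15, against 0.26 for Syp and 0.21 for Sv2c. Leaving out K replicate 2 raised the share with an unadjusted P under 0.05 over all genes tested to 14.6%, above the 11.9% (5 of 42) of the list. Without that array the groups did not overlap in 10 genes that were higher and 3 that were lower with N (23.8% and 7.14% of the list, against 12.5% and 21.7% of all genes tested).

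**Figure D1:**
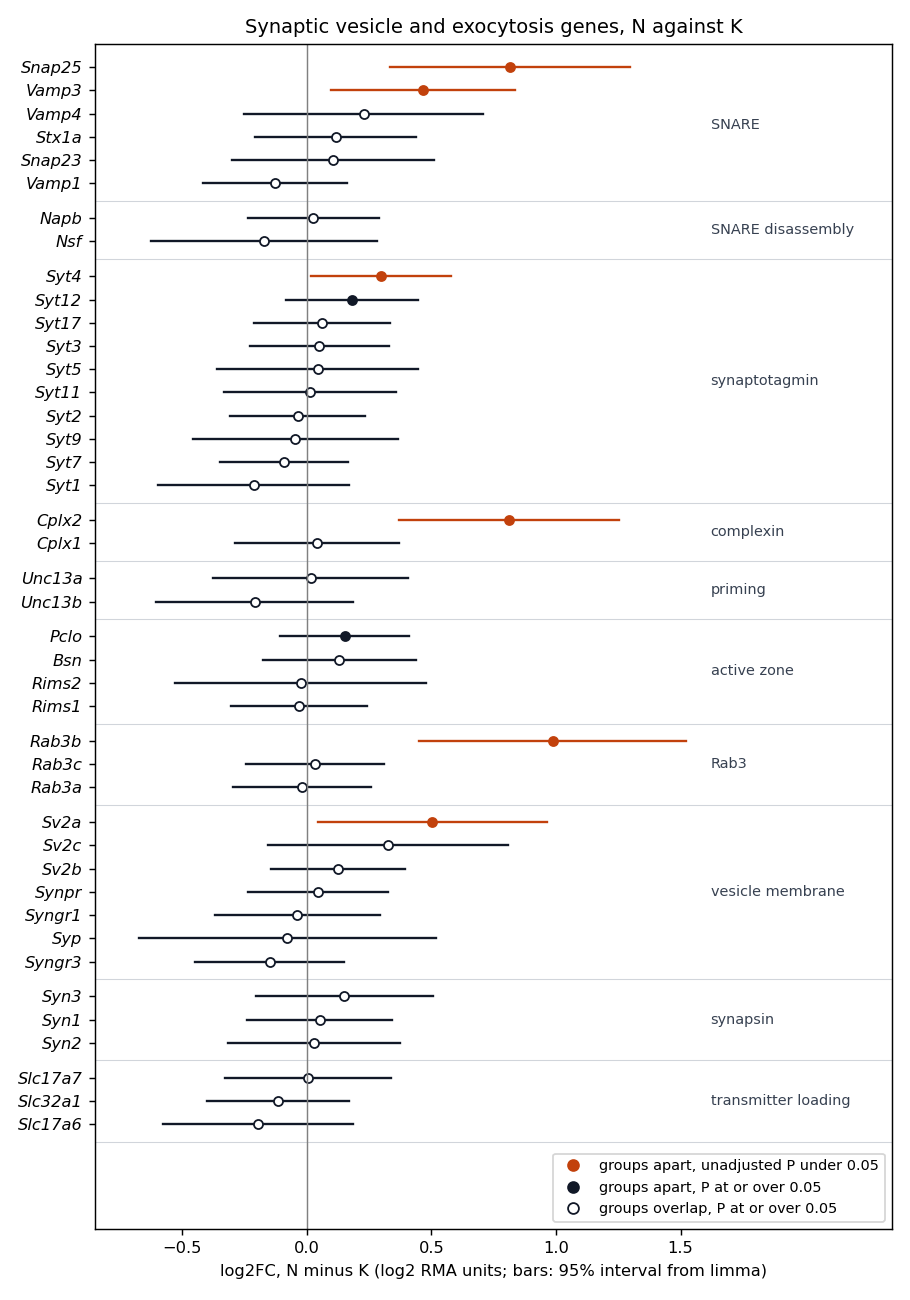
Log2FC of N minus K (horizontal axis, log2 RMA units) for the 42 measured genes by role, with the 95% interval from limma as bars. Filled circles mark the 8 genes whose N and K arrays did not overlap, orange those 6 with an unadjusted P under 0.05, and all 8 lie to the right of 0.

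The arrays as a whole were alike in level, with medians from 6.30 to 6.40 on the log2 scale. K replicate 3 had the lowest mean correlation with its own group (r = 0.948 across clusters, which are not independent replicates). The labelled groups were not the closest arrays throughout: K replicate 2 had a mean r of 0.969 to the N group and 0.954 to its own, and for K replicate 1 these were 0.955 and 0.954. Of the 42 genes, 15 lay below the median of all clusters, 6.34, where array signal is weak and changes are compressed, and a level here does not rank one gene's abundance against another's. Over the 42 genes K replicate 3 was most often the highest array (10 genes) and K replicate 2 most often the lowest (14 genes). Of 7 precursor markers 1, Prom1 (6.16 with N and 5.76 with K), lay below the median of all clusters. Sox2 (10.16 and 9.90) and Fabp7 (12.81 and 12.82) were bright. Of 11 neuron markers 9 lay below that median, among them Dcx (5.44 and 5.51) and Rbfox3 (5.87 and 5.97). The neuron markers Map2 (10.84 and 11.17) and Elavl3 (7.25 and 7.23) lay above it. In such bulk RNA, fewer cells of a type and less RNA per cell cannot be told apart.

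The promoter windows of 3 of these genes are shown because cAMP and calcium both act on the cAMP response element, and because many synaptic genes are held down outside neurons by a repressor that binds the RE1 element. The sequences are 300-base windows around an annotated start from RefSeq (GRCm38.p6), written 5′ to 3′ on the gene's strand. The Cplx2 window lies inside the gene, whose span begins at 54301964, and does not cover the sequence before that base. Capitals mark the response element TGACGTCA, its shorter form TGACG (which TGACGTCA contains) and the RE1 core TTCAGCACC, each searched on both strands. Rab3b had the largest log2FC of the 42, Cplx2 the next smallest P, and the Syn1 window was the only one among the genes' windows to hold TGACGTCA.
Rab3b, chr4:108878820-108879119, plus strand: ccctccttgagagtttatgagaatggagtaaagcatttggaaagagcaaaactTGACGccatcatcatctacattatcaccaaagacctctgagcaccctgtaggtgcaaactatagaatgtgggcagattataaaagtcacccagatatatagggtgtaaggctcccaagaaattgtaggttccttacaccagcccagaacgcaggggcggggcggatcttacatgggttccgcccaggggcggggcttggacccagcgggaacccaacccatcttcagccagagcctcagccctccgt
Cplx2, chr13:54302306-54302605, plus strand: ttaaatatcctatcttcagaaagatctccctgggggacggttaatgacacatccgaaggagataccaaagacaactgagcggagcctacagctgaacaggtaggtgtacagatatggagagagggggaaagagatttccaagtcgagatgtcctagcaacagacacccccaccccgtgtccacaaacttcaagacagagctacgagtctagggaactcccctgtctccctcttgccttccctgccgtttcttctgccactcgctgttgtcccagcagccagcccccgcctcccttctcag
Syn1, chrX:20920869-20921168, minus strand: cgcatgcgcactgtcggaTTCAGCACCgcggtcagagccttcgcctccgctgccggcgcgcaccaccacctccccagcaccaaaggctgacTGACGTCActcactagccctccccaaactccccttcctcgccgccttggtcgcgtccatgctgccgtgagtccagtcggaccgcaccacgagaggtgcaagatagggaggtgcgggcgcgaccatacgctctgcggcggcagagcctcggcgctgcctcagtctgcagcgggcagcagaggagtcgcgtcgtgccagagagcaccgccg

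RefSeq windows were at hand for 32 of the 42 genes, 42 windows in all, and none for Snap25, Vamp3, Syt4 and Syt12 among the genes whose groups did not overlap. TGACGTCA stood in 1 of the 42 windows (2.38%) and in 1.79% of all 32851 windows. TGACG stood in 9 of the 42 windows (21.4%, against 20.8% of all), those of Cplx1, Rab3a, Rab3b, Slc17a6, Stx1a, Syn1, Syt2, Unc13a and Vamp4. TTCAGCACC stood in the windows of Syn1 and Unc13a (4.76%, against 0.371% of all). Of these 9 genes, Rab3b was the only one with an unadjusted P under 0.05. A match says only that these letters stand in the window.

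Among the SNAREs, Snap25 encodes the neuronal membrane SNARE that botulinum toxin A cuts, and lies on chromosome 2 from 136713439 to 136782428 (GRCm38). Its log2 values were 7.05, 7.34 and 7.32 on N replicates 1 to 3 and 6.91, 6.12 and 6.23 on K replicates 1 to 3. The 3 N arrays lay above the 3 K arrays, but K replicate 1 came within 0.13 of the lowest N array. K replicates 2 and 3 lay below the median of all clusters, 6.34, where array signal is weak. The mean was 7.24 ± 0.16 with N and 6.42 ± 0.43 with K (SD, n = 3 arrays each), a 1.76-fold difference (95% interval 1.26 to 2.45). This gave a log2FC of 0.81 (standard error 0.21, unadjusted P = 0.00420, adjusted p = 0.290 from limma).

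Snap23, which serves in place of Snap25 in most cells outside the nervous system, had 9.16, 9.36 and 8.86 with N and 9.14, 9.19 and 8.72 with K. Its groups overlapped, with a log2FC of 0.11 (95% interval -0.30 to 0.51). Within each array the Snap25 value minus the Snap23 value was -1.89 ± 0.31 with N and -2.60 ± 0.43 with K, a shift of 0.71 in which the groups did not overlap. The exact two-sided permutation test gave p = 0.1, the smallest that 3 arrays against 3 allow (adjusted p = 0.25 over the 5 related pairs compared).

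Vamp3 encodes cellubrevin, a vesicle SNARE of most cell types, astrocytes included, and lies on chromosome 4 from 151047305 to 151057953. It read 10.03, 9.67 and 9.90 with N and 9.52, 9.57 and 9.12 with K, so that the groups were 0.10 apart. The log2FC was 0.47 (standard error 0.16, unadjusted P = 0.0192, adjusted p = 0.472 from limma), a 1.38-fold difference (95% interval 1.07 to 1.78). Without N replicate 1 or without K replicate 3 the unadjusted P was no longer under 0.05. Vamp1, the synaptobrevin of motor and sensory neurons, ranged from 6.14 to 6.48 over the 6 arrays, and Vamp4, a SNARE of the trans-Golgi network and endosomes, from 8.47 to 9.34. In both the N and K arrays overlapped. Stx1a, the plasma membrane syntaxin of neurons, read 6.80, 6.67 and 7.07 with N and 6.86, 6.65 and 6.70 with K, with a log2FC of 0.12 (95% interval -0.21 to 0.44). Nsf, the ATPase that takes SNARE complexes apart, and Napb, its brain adaptor, showed overlapping groups, Nsf from 7.16 to 7.95 and Napb from 5.01 to 5.20.

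Of the 10 synaptotagmins, 1 (Syt4) had an unadjusted P under 0.05 (10.0%, against 8.54% of all genes tested). In 2 (Syt4 and Syt12) the groups did not overlap (20.0%, against 13.3% of all genes tested). Syt4, an activity-induced synaptotagmin that binds calcium poorly through its first C2 domain, read 6.28, 6.24 and 6.14 with N and 5.86, 5.83 and 6.07 with K. K replicate 3 came within 0.06 of the lowest N array. The log2FC was 0.30 (standard error 0.12, unadjusted P = 0.0410, adjusted p = 0.560 from limma). Syt12, a synaptotagmin that does not bind calcium, read 5.75, 5.83 and 5.63 with N and 5.52, 5.54 and 5.60 with K. Its groups were 0.03 apart, with a log2FC of 0.18 (standard error 0.12, unadjusted P = 0.153, adjusted p = 0.736 from limma). Without any 1 of the arrays except K replicate 3, the unadjusted P of Syt4 was not under 0.05. Both genes lay below the median of all clusters.

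Syt1, the fast calcium sensor of most forebrain synapses, read 6.16, 6.10 and 6.06 with N and 6.67, 6.03 and 6.25 with K. K replicate 1 stood highest and K replicate 2 lowest, so the groups overlapped, and the log2FC was -0.21 (95% interval -0.60 to 0.17). Syt11, which does not sense calcium and is found in glia as well as neurons, ranged from 10.91 to 11.42. Syt1 minus Syt11 shifted by -0.23 between the groups (exact permutation p = 0.4, adjusted p = 0.5). The fast sensors Syt2 and Syt9 ranged from 5.86 to 6.08 and from 6.79 to 7.30. Syt7, a slow sensor of high calcium affinity, ranged from 7.10 to 7.31, and Syt3, Syt5 and Syt17 from 6.61 to 6.85, from 6.00 to 6.71 and from 6.28 to 6.51. In these 6 the N and K arrays overlapped.

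Cplx2, 1 of the complexins that bind the assembled SNARE complex, lies on chromosome 13 from 54301964 to 54383923. It read 8.20, 8.17 and 8.83 with N and 7.53, 7.46 and 7.77 with K. The groups were 0.39 apart, and N replicate 3 stood above the other N arrays. The log2FC was 0.81 (standard error 0.19, unadjusted P = 0.00255, adjusted p = 0.263 from limma), a 1.76-fold difference (95% interval 1.29 to 2.38). Cplx1, the other complexin on the list, ranged from 6.77 to 7.18 with overlapping groups. Cplx1 minus Cplx2 was -1.46 ± 0.47 with N and -0.69 ± 0.16 with K (SD, n = 3 arrays each). These differences did not overlap, at the smallest possible exact permutation p = 0.1 (adjusted p = 0.25).

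Rab3b encodes a small GTPase of vesicles that is also prominent in endocrine cells, and lies on chromosome 4 from 108879070 to 108943324. It read 7.29, 6.84 and 7.47 with N and 5.73, 6.43 and 6.47 with K. All N arrays lay above all K arrays by at least 0.36, with K replicate 1 the lowest. The mean was 7.20 ± 0.33 with N and 6.21 ± 0.42 with K (SD, n = 3 arrays each), a 1.98-fold difference (95% interval 1.37 to 2.87). The K mean lay below the median of all clusters, 6.34, where array signal is weak. The log2FC of 0.99 (standard error 0.23, unadjusted P = 0.00254, adjusted p = 0.263 from limma) was the largest of the 42. With the arrays centred on their medians, with cyclic loess normalization, or without N replicate 2, K replicate 2 or K replicate 3, it was over 1. Without K replicate 1 it was 0.75, and without N replicate 3 it was 0.85. Over the 15 other settings it ran from 0.75 to 1.17. The other Rab3 genes of the list lay close between the groups, both with overlapping arrays. Rab3a, the most abundant Rab3 of brain synapses, ranged from 6.48 to 6.67 and Rab3c from 4.68 to 4.90.

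**Figure D2:**
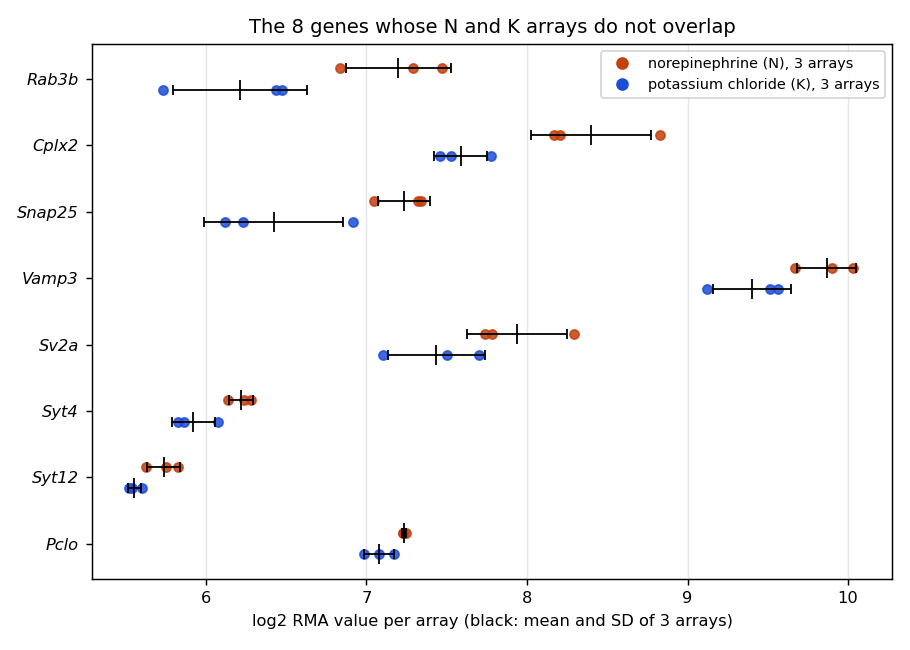
Values on the log2 scale (horizontal axis, RMA) for the 8 genes whose N arrays (orange, n = 3) all lay above their K arrays (blue, n = 3), with black bars for mean ± SD. Rab3b and Cplx2 show the widest gaps, 0.36 and 0.39, and Syt12 the narrowest, 0.03.

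At the active zone, the protein meshwork under which vesicles dock, Pclo (the scaffold piccolo) read 7.23, 7.23 and 7.25 with N and 7.17, 6.99 and 7.08 with K. The groups did not overlap, though the difference was small, with a log2FC of 0.15 (standard error 0.11, unadjusted P = 0.217, adjusted p = 0.785 from limma). Bsn, the related scaffold bassoon, ranged from 6.45 to 6.86. Rims1 and Rims2, which tether Rab3-bearing vesicles, ranged from 5.89 to 6.10 and from 7.04 to 7.86. Unc13a and Unc13b, which encode Munc13 priming factors, ranged from 7.21 to 7.83 and from 5.79 to 6.40. All of these had overlapping groups, and Unc13a minus Unc13b shifted by 0.22 (exact permutation p = 0.6, adjusted p = 0.6). The other 2 clusters of Unc13a had N minus K differences of 0.12 and -0.07, against 0.02 for the cluster used, so its direction was not settled.

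Among the vesicle membrane proteins, Sv2a, a transporter-like glycoprotein and the target of the drug levetiracetam, lies on chromosome 3 from 96181227 to 96195183. It read 7.78, 7.74 and 8.29 with N and 7.50, 7.70 and 7.11 with K. The groups were 0.04 apart, N replicate 3 standing highest and K replicate 3 lowest. With each array centred on its median they overlapped. The log2FC was 0.50 (standard error 0.20, unadjusted P = 0.0354, adjusted p = 0.541 from limma), a 1.42-fold difference (95% interval 1.03 to 1.95). Without N replicate 3, K replicate 1 or K replicate 3 its unadjusted P was not under 0.05. Its relatives Sv2b and Sv2c overlapped between the groups, though with each array centred on its median Sv2b did not. Sv2b ranged from 5.73 to 6.01 and Sv2c from 5.30 to 6.24, its highest value on N replicate 1.

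Syp, which encodes the vesicle marker synaptophysin, read 7.41, 6.32 and 6.53 with N and 6.78, 7.02 and 6.69 with K. N replicate 1 stood far above the other N arrays, and the log2FC was -0.08 (95% interval -0.67 to 0.52). Without that array the value was -0.41, the N arrays lay below the K arrays, and the unadjusted P from limma was under 0.05. Synpr, a relative of synaptophysin, ranged from 5.41 to 5.67. The synaptogyrins Syngr1 and Syngr3 ranged from 6.80 to 7.29 and from 6.06 to 6.49, and Syngr1 minus Syngr3 shifted by 0.11 (exact permutation p = 0.4, adjusted p = 0.5). Syn1, which encodes the synapsin that ties vesicles to actin, read 6.64, 6.44 and 6.67 with N and 6.62, 6.39 and 6.58 with K, with a log2FC of 0.05 (95% interval -0.24 to 0.34). Syn2 ranged from 7.90 to 8.39 and Syn3 from 6.24 to 6.84. In these genes the groups overlapped.

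**Figure D3:**
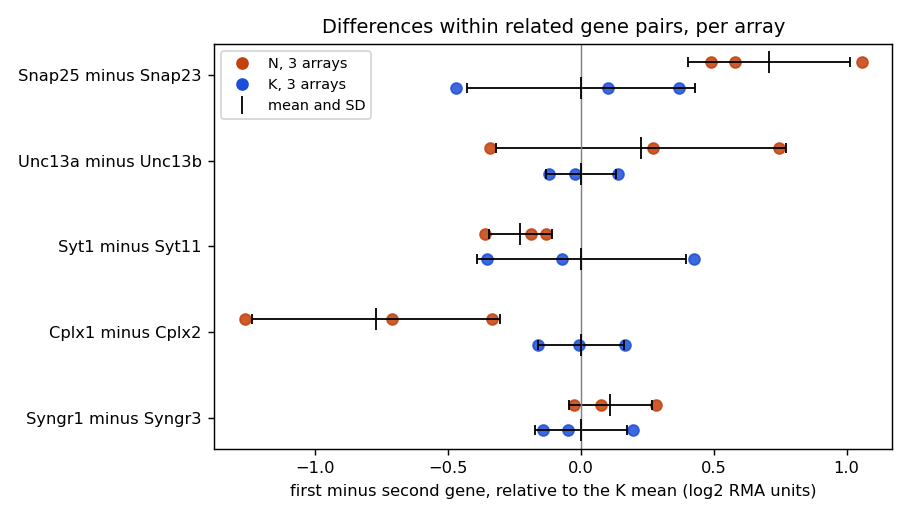
Log2 value of the first minus the second gene of each related pair, per array and relative to the K mean (horizontal axis), for N (orange) and K (blue) arrays, with mean ± SD over 3 arrays. The groups do not overlap for Snap25 minus Snap23 and for Cplx1 minus Cplx2 and overlap for the other 3 pairs.

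The transporters that load vesicles with transmitter mark the kind of neuron. Slc17a7 and Slc17a6 encode the vesicular glutamate transporters VGLUT1 and VGLUT2, and Slc32a1 the GABA transporter VGAT. Slc17a7 read 5.85, 6.16 and 6.18 with N and 6.07, 5.88 and 6.22 with K, with a log2FC of 0.01 (95% interval -0.33 to 0.34). Slc17a6 read 4.60, 4.38 and 4.48 with N and 4.62, 4.42 and 5.02 with K, with a log2FC of -0.19 (95% interval -0.58 to 0.19). Slc32a1 read 5.93, 6.07 and 5.85 with N and 6.18, 5.95 and 6.07 with K, with a log2FC of -0.12 (95% interval -0.40 to 0.17). All 3 lay below the median of all clusters, with overlapping groups.

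A further 97 genes of vesicle release and retrieval that are not on the first list were looked at in the same fit, and 91 were measured. None passed at an adjusted p under 0.05 from limma. At an unadjusted P under 0.05, 6 were higher with N and 2 lower (6.59% and 2.20%, against 4.64% and 3.89% of all genes tested). The total of 8 (8.79%) was close to the 8.54% of all genes tested, and the median log2FC was 0.01. An ordinary linear model had 7 at an unadjusted P under 0.05 (7.69%, against 7.03% of all genes tested). The strongest was Cadps, which encodes the factor CAPS that primes dense-core vesicles. It read 6.72, 6.71 and 6.69 with N and 5.39, 5.71 and 4.81 with K. The SD was 0.015 with N and 0.45 with K, and every N array lay at least 0.98 above every K array. The log2FC was 1.40 (standard error 0.21, unadjusted P = 1.11e-04, adjusted p = 0.0600 from limma), a 2.64-fold difference (95% interval 1.90 to 3.67). It passed at an adjusted p under 0.05 in 3 of 14 other settings, in which its adjusted p ranged from 0.0425 to 0.538. The mean of Cadps over the arrays lay below the median of all clusters.

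Snap91, which encodes the clathrin adaptor AP180 that retrieves vesicle membrane, read 7.97, 7.74 and 7.89 with N and 7.40, 7.21 and 7.28 with K. Its groups were 0.34 apart, with a log2FC of 0.57 (standard error 0.12, adjusted p = 0.207 from limma). Ppfia2, which encodes the active zone scaffold liprin-alpha-2, had a log2FC of 0.59 (standard error 0.17), and Rimbp2, which links RIM proteins to calcium channels, -0.42 (standard error 0.13). The groups of both were apart, in opposite directions, and neither passed (adjusted p = 0.332 and 0.380 from limma). Among genes of the Rab3 and Rab27 cycle, Sytl2, a Rab27 effector, had a log2FC of 0.70 and Rab3gap1, which switches Rab3 off, 0.49. The SNARE Vamp8 had 0.45 and Stxbp6 0.26. Scamp2, a carrier membrane protein, had -0.30, the vesicle protein Svop 0.35, Syt16 -0.23 and the endocytic scaffold Itsn1 -0.26. None of these 8 passed (lowest adjusted p = 0.493 from limma). Ppfia2, Rimbp2, Sytl2, Svop and Syt16 lay below the median of all clusters.

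**Figure D4:**
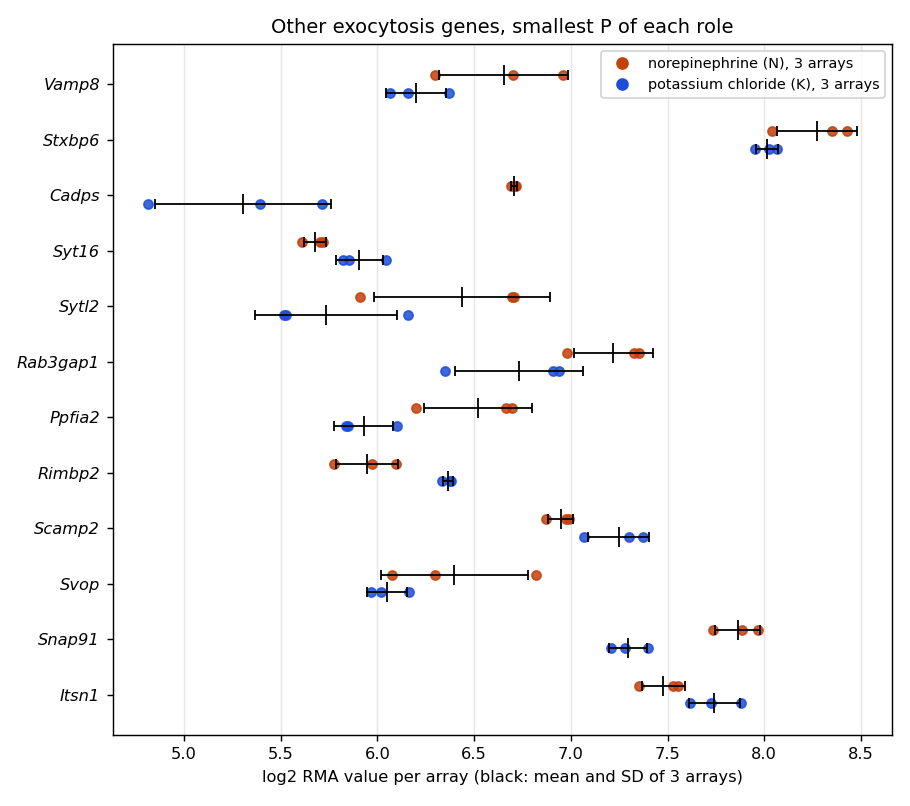
Log2 RMA values (horizontal axis) of 12 further exocytosis genes, those with the smallest P of each role, on N (orange, n = 3) and K (blue, n = 3) arrays, with black bars for mean ± SD. The N arrays of Cadps lie at least 0.98 above its K arrays, and those of Rimbp2 lie below its K arrays.

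Markers of other cells were read beside these genes. Of 7 astrocyte markers 5 were higher with N at an unadjusted P under 0.05 and 0 lower, beside 4.64% and 3.89% of all genes tested. These were the filament gene Gfap by 1.66 (adjusted p = 0.0358 from limma, the 1 marker gene to pass), the water channel gene Aqp4 by 1.56, the glutamate transporter gene Slc1a2 by 0.87, Aldoc by 0.55 and Aldh1l1 by 0.47 on the log2 scale. Slc1a3 had 0.15, and S100b went the other way with -0.47, both without an unadjusted P under 0.05. The mean level of all 7 per array was 8.71 to 9.19 with N and 8.19 to 8.27 with K. On the linear scale, their summed signal was 5160 to 6092 with N and 3830 to 4272 with K. Of 11 neuron markers 2 were higher, Tubb3 by 0.47 and the neurofilament gene Nefl by 0.64, and 1 lower, Map2 with -0.32, each without passing after adjustment. Their mean level per array, 6.44 to 6.56 with N and 6.31 to 6.49 with K, overlapped between the groups. Their summed linear signal was 2509 to 2637 with N and 2896 to 3028 with K, most of it from Map2. Of 7 precursor markers 2 were higher, Vim by 0.44 and Prom1 by 0.40, and 1 lower, Nes with -0.53, at an unadjusted P under 0.05. Of 8 measured oligodendrocyte lineage, 4 microglial and 4 endothelial markers none had an unadjusted P under 0.05 (0 after adjustment, both from limma). The part of astrocytes or neurons in the values of Rab3b, Cplx2, Snap25, Vamp3 and Sv2a was not tested.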

How the data were processed

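RNA of mouse hippocampal neurospheres grown with norepinephrine (N) or potassium chloride (K) was measured on whole-transcript mouse gene arrays of Affymetrix, 3 per group. From the scans the authors made log2 values with RMA in Partek Genomics Suite, the values deposited and used here. RMA corrects background, normalizes between arrays and gives 1 value per transcript cluster. Versions and settings are not given in the sources used here. RMA evens out overall shifts between arrays and compresses changes of dim clusters. All 6 columns were matched to samples by their labels.

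Of 34760 clusters, 21640 carried 1 symbol, 1321 several and 11799 none. For each of 19937 genes the cluster with the highest mean was tested with limma 3.58.1 in R 4.3.3 (lmFit, eBayes, no further terms), with Benjamini-Hochberg adjustment over all genes and a threshold of 0.05. The study's methods give thresholds on log2FC and P but name no test. The fit was tested on simulated data. Related pairs were compared per array by an exact permutation test (scipy 1.17.1). Array values have no read depth, and the number of arrays limits the precision. Values on every array are given for genes with an unadjusted P under 0.05 or groups that did not overlap and for 10 genes named at the start (Vamp2, 1 of these, was not measured). Of the further exocytosis genes, the 2 with the smallest P of each role are named. Other marker genes are named where a count needs them. The genes, lists and rules were chosen with earlier results of these data known. The alternatives tried were a model with the replicate number, models without moderation or with trend, other normalizations, other cluster choices, other thresholds and each array left out.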

Additional observations from a re-analysis of the deposited data

How the results depend on the processing

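No gene of the list passed at an adjusted p under 0.05 under any of the 15 other settings run. Rab3b, Cplx2 and Snap25 had an unadjusted P under 0.05 in all 15, Vamp3 in 12, Sv2a in 9 and Syt4 in 8 of 14. Their adjusted p ranged from 0.106 (Cplx2) to 0.876 (Syt4) over these settings. The count at an unadjusted P under 0.05 was 3 (7.14%) at a threshold of 0.01, against 2.59% of all genes tested. It was 4 to 5 (9.52% to 11.9%) with 1 array left out, of which 1 (Syp, without N replicate 1) was lower with N. Over all genes tested the share was 14.6% without K replicate 2, above that of the list, and 6.27% to 7.16% without another array. With each array centred on its median, 1 gene (Rab3b, 2.38%) had a log2FC over 1 and an unadjusted P under 0.05. The same held with cyclic loess normalization. Over all genes tested these shares were 0.507% and 0.497%. At a threshold of 1.5-fold the count was 3 (2.56% of all genes tested). With 1 array left out, the count with a log2FC over 1 was 0 to 1 (Snap25 without K replicate 1, Rab3b otherwise). The share over all genes tested was then 0.451% to 1.06%. Genes with groups that did not overlap numbered 10 to 13 with 1 array left out (23.8% to 31.0%), and 1 to 3 of them were lower with N in each case. Fewer arrays overlap less often, and over all genes tested the share was 34.2% without K replicate 2, above the 31.0% of the list, and 20.6% to 23.2% without another array, against 13.3% with all arrays. Among the further exocytosis genes the count at an unadjusted P under 0.05 was 4 with clusters above the median only, where fewer genes are tested (7.02%, against 10.1% of all), and 4 to 12 with 1 array left out, settings added after seeing the data. The 4 (4.40%, against 6.39% of all genes tested) came without N replicate 2 and the 12 (13.2%, against 14.6%) without K replicate 2. Cadps passed with the replicate block (log2FC 1.40), with trend and robust (1.40) and without K replicate 2 (1.60). With 1 array left out, some small values changed sign: Slc17a7 ran from -0.083 to 0.11, Snap23 from -0.042 to 0.24, Syn1 from -0.020 to 0.12, Syp from -0.41 to 0.14 and Unc13a minus Unc13b from -0.037 to 0.51. The cause of these changes was not tested. The other pairs kept their sign, Snap25 minus Snap23 between 0.47 and 0.89 and Cplx1 minus Cplx2 between -0.99 and -0.52. The median log2FC over the list lay between 0.01 and 0.05 with 1 array left out.

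The replicate numbers are shared by the groups, but the labels do not say that they pair the arrays. Deviations of same-numbered arrays from their group means correlated at 0.04, 0.04 and 0.12 across genes. Over all pairs of an N and a K array these correlations ran from -0.14 to 0.12. Of the 6 arrays, 4 correlated best with their own number, which with values this low does not settle whether the numbers pair the arrays. With the replicate block the count at an adjusted p under 0.05 was 0 of the list and 41 of all genes, and at an unadjusted P under 0.05 it was 4 of the list (Snap25, Vamp3, Cplx2 and Rab3b), or 9.52%, close to the 9.40% of all genes tested in that fit. Dim clusters and 3 arrays per group limit what could be detected.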
